A study of Rattus norvegicus with 36 samples.

Results

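The response of the rat lung to DQ-12, a reground quartz dust used as a reference crystalline silica, was compared between the acute phase, 1 day after exposure (D1), and the intermediate phase, 30 days after it (D30). The quantity tested for each gene was the log2 change from vehicle to DQ-12 rats at D30 minus the same change at D1, called the difference between time points here. It rested on 24 of the 36 arrays of the series, 6 in each of 4 groups: vehicle D1, DQ-12 D1, vehicle D30, and DQ-12 D30, with 1 array per rat. All were female Sprague Dawley rats, 13 weeks old when the vehicle or 10 mg of DQ-12 per rat was placed in the trachea by instillation, and vehicle rats went through the same procedure without particles. The RNA came from the whole accessory lobe, after a single dose delivered as a bolus, so that fewer cells of a type and less RNA per cell cannot be told apart. Of 23940 genes tested, 226 (0.944%) had a difference of at least 2-fold (1 on the log2 scale) with an adjusted p under 0.05 by limma, and these 226 genes are described below. The change was more positive at D30 for 92 of them (0.384% of the genes tested) and more negative for 134 (0.56%). This balance depended on the processing, with 136 more positive and 89 more negative genes under 75th percentile scaling, and 23 and 7 with scan date as a block.

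Inhaled silica crystals are taken up by alveolar macrophages, which cannot dissolve them and release interleukin 1 and chemokines that draw neutrophils into the airspace. Injured epithelium is replaced by division of progenitor cells, and macrophages and interstitial cells can also divide, so the genes of DNA replication and mitosis act as a common readout of proliferation in many cell types. Particles persist, and macrophages loaded with particles, lipid, and debris gather over the following weeks. Most genes expressed in the late cell cycle are held silent in resting cells through a short promoter element, the cell cycle genes homology region (CHR), often beside CCAAT boxes bound by the factor NF-Y.

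Scan dates limited what could be compared. At D1, all DQ-12 arrays were scanned on 1 date together with the array of vehicle rat 3, which also shared a slide with 4 of them, whereas the arrays of the 5 remaining vehicle rats were scanned on 2 other dates. For those 5 rats, exposure and scan date cannot be told apart. At D30, the 2 scan dates both held arrays of both groups, and no date held arrays of both time points. Between 57.1 and 71.8% of probes were well above background on these 24 arrays. The lung markers Sftpc, Sftpb, Ager, and Scgb1a1 lay among the brightest signals in each group (lowest array 16.13 on the log2 scale for Scgb1a1). Genes of heart muscle were present too, with a mean log2 signal of 13.42 for Myh6 in vehicle D1 rats, and its difference between time points was -0.10 (adjusted p = 0.89). The defining markers Cd3e and Cd3d of T cells, Cd79b and Ms4a1 of B cells, Nkg7 and Prf1 of NK cells, Cpa3 and Tpsb2 of mast cells, Alas2 of red cells, and Tnnt2 and Ckm of striated muscle did not pass the test of the difference (limma).

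The 226 genes were sorted by whether the change at D1 and at D30 passed an adjusted p under 0.05. This sorting uses the same contrasts as the call and is a description only. The largest class held 89 genes that rose at D1 and no longer passed at D30, with a median change of 1.68 at D1 and 0.16 at D30 (log2). In a further 35 genes the rise was still present at D30 but smaller (medians 2.18 and 0.83). In the opposite direction, 33 genes did not pass at D1 and rose at D30 (medians -0.23 and 1.31), and 6 genes that had risen at D1 rose further (0.98 and 3.18). A fall at D1 that no longer passed at D30 was seen for 42 genes (-1.09 and 0.18), and for 5 genes a fall passed at D30 alone (0.44 and -0.99). For 8 genes the change passed at both time points with opposite signs. The remaining 8 passed at neither time point by themselves. Of the 226, 191 were well above background on at least 3 of the 6 arrays of each group, and 35 were not. Genes just inside the 2-fold limit were Srebf1 (1.00), Cdh24 (-1.002), and Tpi1 (-1.003), and genes just outside were RGD1563709 (-0.998), Gapdh-ps1 (-0.991), and Mybl2 (-0.984).

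**Figure D1:**
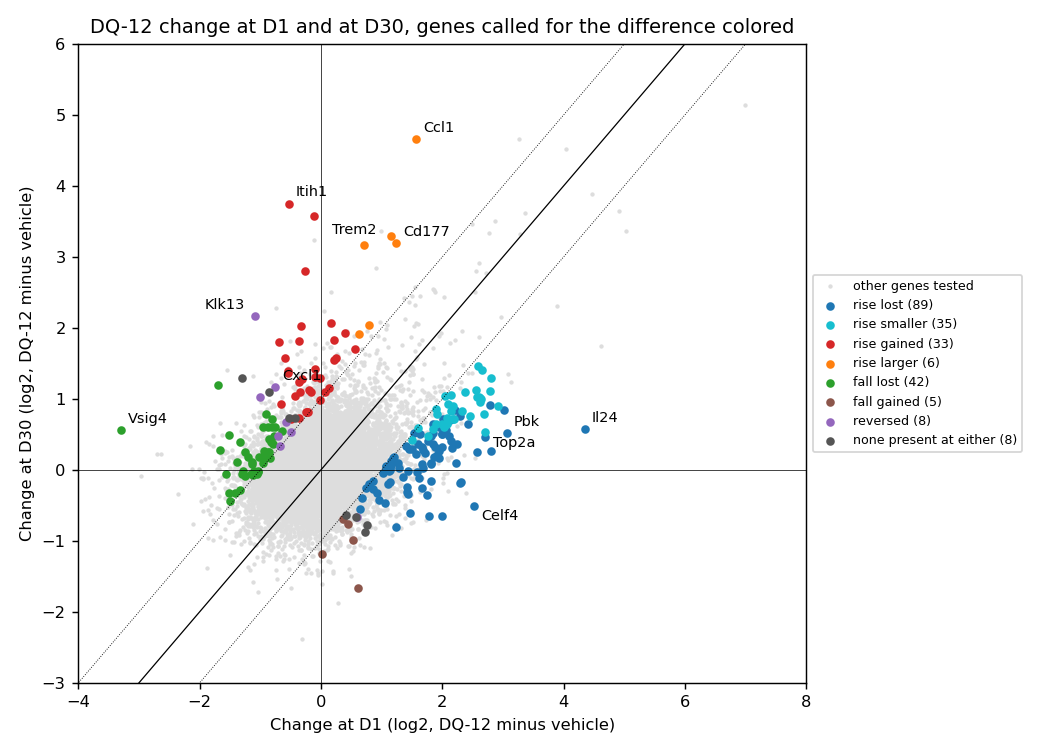
Change from vehicle to DQ-12 rats at D1 (x axis) and at D30 (y axis), both as log2 differences of 6 rats per group, with 1 point per gene. Gray points are genes not called, colored points are the 226 genes called for the difference by class, the solid line marks equal change, and the dotted lines mark a 2-fold difference. The 124 genes with a lost or smaller rise lie below the lower dotted line on the right, and Ccl1, Itih1, Trem2, and Klk13 lie far above the upper one.

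The difference between time points is the shift of the DQ-12 rats from D1 to D30 minus the shift of the vehicle rats. The shift was larger in DQ-12 than in vehicle rats for 199 of the 226 genes (88.1%), among them 82 of the 89 lost rises and 34 of the 42 lost falls. The genes were called for the difference of these same shifts, so the counts are a description only. In the lost rises, the median shift was -1.30 in DQ-12 rats and 0.19 in vehicle rats, and in the gained rises it was 1.25 and -0.37. Over all genes, 1166 (4.87%) differed at least 2-fold between D30 and D1 in DQ-12 rats and 657 (2.74%) in vehicle rats (adjusted p under 0.05, limma). All of these shifts and counts include age and scan date, which differed between the time points in both treatments.

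Genes of the cell division machinery made up much of the lost and smaller rises. Of 44 genes in a list of cell cycle genes, 28 (63.6%) were called, all with a more negative change at D30, against 0.56% of all genes. The median difference over the 44 genes was -1.26, beside 0.007 over all genes tested, and 43 of the 44 values were negative. At D1, 36 of the 44 genes were higher DEGs (at least 2-fold, adjusted p under 0.05), where 2.02% of all genes were higher, and 0 were lower (1.05% of all genes). At D30, 9 were higher DEGs (0.915% of all genes) and 0 were lower (0.138%). At D180, in other rats, 24 were higher DEGs (2.86% of all genes) and 0 were lower (0.773%). The median change of the list was 1.91 at D1, 0.56 at D30, and 1.20 at D180 (log2). The list was written with earlier results of these data known, and its counts are a description.

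The promoters of these genes were looked at as well. The letters TTTGAA (CHR) and CCAAT were searched on both strands in RefSeq promoters of the GRCr8 assembly, from 250 bases before to 50 bases after the start of each gene. TTTGAA was present in 12 of the 22 called cell cycle genes that had a promoter entry (54.5%), in 18.1% of all 27457 promoters, and in 13.8% of the promoters of the genes tested. CCAAT was present in 16 of the 22 (72.7%) and in 37.7% of all promoters, and both in 11 of the 22 (50%) and in 7.25% of all. In the whole cell cycle list, called or not, 34 genes had an entry. TTTGAA was present in 47.1% of them, CCAAT in 76.5%, and both in 41.2%. The letters thus describe the list and do not set its called genes apart. Among the 70 genes with a lost or smaller rise that were outside the cell cycle list and had an entry, TTTGAA was present in 26 (37.1%). It was present in 2 of 26 genes with a gained or larger rise (7.69%) and in 9 of 28 with a lost fall (32.1%). The 250 bases before the start are shown for 4 called genes that held both elements, Top2a (chr10:84473094-84473343, minus strand), Cdk1 (chr20:19265043-19265292, plus strand), Ccnb2 (chr8:79981659-79981908, minus strand), and Ect2 (chr2:111966627-111966876, minus strand). Each is written 5′ to 3′ along the gene, and capitals mark TTTGAA and CCAAT on either strand.
Top2a: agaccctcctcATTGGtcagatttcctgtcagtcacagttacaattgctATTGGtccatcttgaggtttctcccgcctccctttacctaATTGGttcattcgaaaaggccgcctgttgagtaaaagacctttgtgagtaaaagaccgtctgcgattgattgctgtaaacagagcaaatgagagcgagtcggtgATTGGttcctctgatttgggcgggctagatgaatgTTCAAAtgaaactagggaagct
Cdk1: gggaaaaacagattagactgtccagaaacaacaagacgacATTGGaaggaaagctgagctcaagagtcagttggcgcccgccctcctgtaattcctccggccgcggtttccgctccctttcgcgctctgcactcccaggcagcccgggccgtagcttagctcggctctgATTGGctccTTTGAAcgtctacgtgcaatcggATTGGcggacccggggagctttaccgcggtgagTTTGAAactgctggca
Ccnb2: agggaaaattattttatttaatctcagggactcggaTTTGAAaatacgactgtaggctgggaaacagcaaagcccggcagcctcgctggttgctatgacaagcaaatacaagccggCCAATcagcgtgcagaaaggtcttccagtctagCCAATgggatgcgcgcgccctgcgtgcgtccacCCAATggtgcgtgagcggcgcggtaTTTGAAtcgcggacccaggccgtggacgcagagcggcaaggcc
Ect2: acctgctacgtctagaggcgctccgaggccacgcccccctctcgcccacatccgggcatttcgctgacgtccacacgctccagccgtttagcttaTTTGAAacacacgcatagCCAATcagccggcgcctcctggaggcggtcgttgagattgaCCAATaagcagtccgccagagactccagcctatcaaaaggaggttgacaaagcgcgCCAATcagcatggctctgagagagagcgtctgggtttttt
Within these 250 bases, Top2a held 1 TTTGAA and 4 CCAAT sites, Cdk1 held 2 and 3, Ccnb2 held 2 and 3, and Ect2 held 1 and 3. Tk1, which was called in the same direction, held 0 of either. A match of letters does not show that a factor binds there.

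Top2a, the topoisomerase that untangles chromosomes before they separate, had the smallest adjusted p of the 226 genes. Its log2 signal was 6.42 to 7.24 in vehicle D1 rats (median 6.80) and 9.03 to 9.89 in DQ-12 D1 rats (median 9.46). At D30 the range was 6.27 to 7.07 (median 6.43) for vehicle and 6.89 to 7.29 (median 7.02) for DQ-12 rats. The groups were far apart at D1 and overlapped at D30. The FC was thus 6.55 at D1 and 1.44 at D30, a difference of -2.18 ± 0.21 (log2, SE, n = 6 per group, adjusted p = 1.9e-07). Ect2, which starts the constriction of dividing cells, ran from 7.17 to 7.86 (median 7.52) in vehicle D1 rats and from 9.57 to 10.79 (median 10.16) in DQ-12 D1 rats. At D30 it ran from 7.11 to 8.27 (median 7.27) and from 7.95 to 8.44 (median 8.25). The rise of Ect2 was 6.43-fold at D1 and 1.72-fold at D30, and both passed the test, with a difference of -1.90 ± 0.26 (adjusted p = 6.7e-05).

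Genes of other steps of the cell cycle gave similar values. For Cdc6, which loads the replicative helicase onto origins, the signal was 3.77 to 4.90 (median 4.02) and 6.44 to 7.39 (median 6.97) at D1, and 4.02 to 5.08 (median 4.70) and 5.24 to 5.78 (median 5.66) at D30, in vehicle and DQ-12 rats, respectively. No vehicle rat reached a DQ-12 rat at either time point, and the difference was -1.86 ± 0.42 (adjusted p = 0.012). Kif14, a kinesin of cytokinesis, rose 6.51-fold at D1 and was 1.38-fold at D30 (difference -2.24, adjusted p = 0.00092). Pbk, a mitotic kinase, rose 8.36-fold at D1 and was 1.44-fold at D30 (-2.54, adjusted p = 0.0039). Cdca8, a subunit of the chromosomal passenger complex that corrects kinetochore attachment, had a difference of -2.12 (adjusted p = 0.0087), with 6 DQ-12 D1 arrays and 1 array of each other group well above background. Hmmr, a spindle and hyaluronan-binding protein, stayed below the well-above-background limit on the vehicle arrays of D1 and on all arrays of D30, so that only a bound was measured, at least 1.65-fold higher at D1. Stil, which is needed to duplicate centrioles, was at least 4.60-fold higher at D1, and Eme1, a subunit of a DNA repair endonuclease, at least 2.76-fold. For Fancd2, the central protein of the Fanconi anemia repair pathway, 1 vehicle array and 6 DQ-12 arrays were well above background at D1, where it was 4.96-fold higher. As 0 arrays were well above background at D30, no exact difference was measured for Fancd2. The fitted value of -2.48 (adjusted p = 0.026) was -0.76 with scan date and -0.65 with slide as a block.

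The 16 cell cycle genes that were not called were Kif11, Dlgap5, Mcm2, Plk1, E2f1, Prc1, Mcm5, Cenpf, Rrm2, Mcm7, Mcm4, Aurkb, Mcm3, Aurka, Pcna, and Pole. E2f1, a transcription factor that starts the S phase, missed only the 2-fold limit (-0.90, adjusted p = 3.34e-05). Subunits of the replicative helicase were divided, with Mcm6 called at -1.71 and Mcm2 at -0.94, Mcm7 at -0.74, and Mcm3 at -0.37 outside the limit. Pcna, the sliding clamp of replication, had a change of 0.53 at D1 and 0.21 at D30. The mean log2 signal of the 44 genes per rat was 7.14 to 7.70 in vehicle D1 rats (median 7.33), 8.74 to 9.57 in DQ-12 D1 rats (9.14), 7.19 to 7.76 in vehicle D30 rats (7.30), and 7.77 to 8.14 in DQ-12 D30 rats (7.90). The 2 vehicle groups covered nearly the same range, and the DQ-12 rats at D30 lay between them and the DQ-12 rats at D1.

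**Figure D2:**
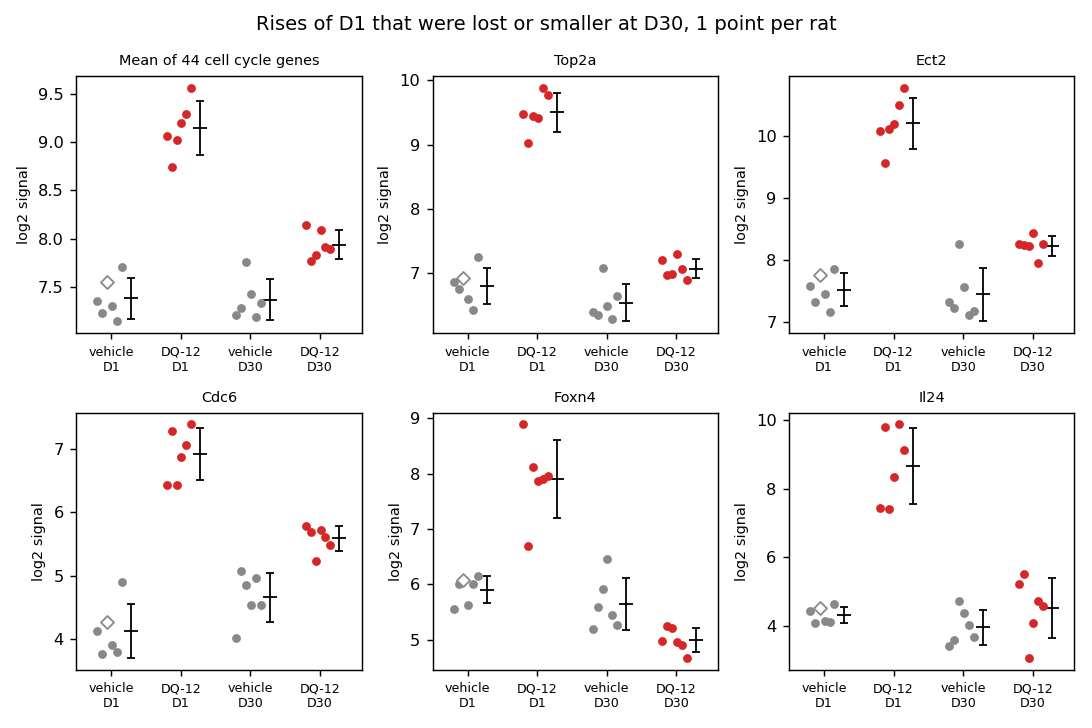
Log2 signal per rat (y axis) of the mean of 44 cell cycle genes and of Top2a, Ect2, Cdc6, Foxn4, and Il24 in the 4 groups, with bars for the mean ± SD of 6 rats. Gray circles are vehicle rats, red circles DQ-12 rats, and the open diamond is vehicle D1 rat 3, whose array was scanned with the DQ-12 D1 arrays. In each panel the DQ-12 D1 rats lie above the other 3 groups, and the diamond lies with the other vehicle rats.

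Genes that work beside the cell cycle list followed it. A pair of further lists was drawn up after the values had been seen, so their counts only describe how far the pattern reached. Of 46 genes of DNA replication and repair, 22 were called, all more negative (47.8%, beside 0.56% of all genes, median difference -1.03), among them Cdc45, Pola1, Chek1, and Tyms. Of 45 genes of the centromere and spindle, 23 were called, all more negative (51.1%, median -1.08), among them Kifc1, Espl1, Nuf2, and Incenp. With scan date as a random block, 8 and 15 genes of these lists were called. Against the vehicle D1 array of the shared scan date, 1 and 1 were called, with scan date as a block 1 and 2, and with slide as a block 0 and 1. Together with the cell cycle list, these covered 73 of the 124 genes with a lost or smaller rise. Some called genes rested on probes that disagreed. E2f8, a repressor of the E2F family, had -2.02 by its brightest probe and -0.47 and 1.07 by its other probes, and Arhgef39, a guanine nucleotide exchange factor, had -2.32 and 0.05.

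Some lost rises lay outside cell division. Il24, a cytokine of the interleukin 10 family, had a log2 signal of 4.07 to 4.64 (median 4.28) in vehicle D1 rats and 7.41 to 9.89 (median 8.74) in DQ-12 D1 rats. The D30 values were 3.40 to 4.72 (median 3.85) and 3.06 to 5.52 (median 4.66), so that the groups overlapped. The rise was 20.4-fold at D1 and 1.48-fold at D30, the latter with 1 vehicle array and 4 DQ-12 arrays well above background (difference -3.79 ± 0.67, adjusted p = 0.0011). It was the only member of a list of 25 acute cytokines with a lost rise. Nfkbiz, an inhibitor protein that acts in the NF-kappaB pathway, was called in the opposite direction (1.11 ± 0.29, adjusted p = 0.035). Together they were 8% of the list, beside 0.944% of all genes called. The difference of Nfkbiz was 0.55 against the vehicle D1 array of the shared scan date and 0.37 with scan date as a block, and neither passed. Of 32 matrix genes, 2 were called, both more negative (6.25%, beside 0.56% of all genes). Tnc, the wound matrix protein tenascin C, was 6.73 to 8.45 in vehicle D1 rats and 8.76 to 10.00 in DQ-12 D1 rats, and 7.30 to 8.30 and 7.71 to 8.25 at D30 (difference -1.66 ± 0.36, adjusted p = 0.0092). Timp1, an inhibitor of matrix metalloproteinases, rose 2.83-fold at D1 and was 1.22-fold at D30 (-1.21 ± 0.26, adjusted p = 0.0079). Its call rested on DQ-12 D1 rat 2, at 14.98, without which the difference was -0.95.

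A further set of lost rises held genes of multiciliated cell differentiation. Foxn4, a forkhead factor that acts in the formation of multiciliated cells, was 5.56 to 6.15 in vehicle D1 rats (median 6.01) and 6.69 to 8.89 in DQ-12 D1 rats (median 7.93). At D30 the signal was 5.19 to 6.45 (median 5.52) for vehicle and 4.67 to 5.25 (median 4.97) for DQ-12 rats. The groups did not overlap at D1 and overlapped at D30, and the difference was -2.64 ± 0.41 (adjusted p = 0.00028). Ccno, the cyclin that drives the multiplication of centrioles in these cells, had a change of 1.42 at D1 and -0.24 at D30 (difference -1.65, adjusted p = 6.72e-05). In a list of 19 genes of this program, chosen after the values had been seen, 6 were called, all more negative (31.6%, beside 0.56% of all genes). They were Foxn4, Ccno, Plk4, Stil, Cep72, and Shisa8, and the median difference of the list was -0.13. Of these 19 genes, 4 were called with scan date as a random block, and 0 with scan date or slide as a block or against the array of the shared scan date. Plk4 and Stil also act in dividing cells. The master regulators Mcidas and Gmnc had differences of 0.22 and 0.18, and Foxj1, the factor of the mature ciliated cell, -0.13, and none of these 3 passed. Celf4, an RNA-binding protein, had a difference of -3.03 ± 0.50 (adjusted p = 0.00058), whereas its other probes gave -2.24, 0.12, and 1.44.

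The same genes were then looked at on D180. The D180 values did not enter the contrasts that chose them. The D180 arrays did share the normalization, the probe filter, the choice of the brightest probe, and the pooled spread. With the 24 arrays of D1 and D30 alone in the fit, 241 genes were called, 199 of them among the 226. Of the 89 genes with a lost rise, 23 (25.8%) were higher DEGs at D180, and of the 35 with a smaller rise, 31 were (88.6%), beside 2.86% of all genes. For reference, 162 of the 365 genes that were higher DEGs at D1 and not called for the difference were higher at D180 (44.4%). The median change of the lost rises was 0.64 at D180, above the 0.16 of D30, and that of the smaller rises was 1.54, above 0.83. Both classes were chosen for a low change at D30, so a higher median at D180 is in part fixed by that choice. Of the 33 gained rises, 23 (69.7%) were higher DEGs at D180, as were all 6 of the larger rises, whereas 2 of the 42 lost falls were higher and 1 was lower. Among the genes that were higher DEGs at D30 and not called for the difference, 151 of 173 (87.3%) were higher at D180. The thresholds are unlike. Both reference sets need a change of at least 2-fold at D1 or D30, whereas the classes need only an adjusted p under 0.05 there.

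**Figure D3:**
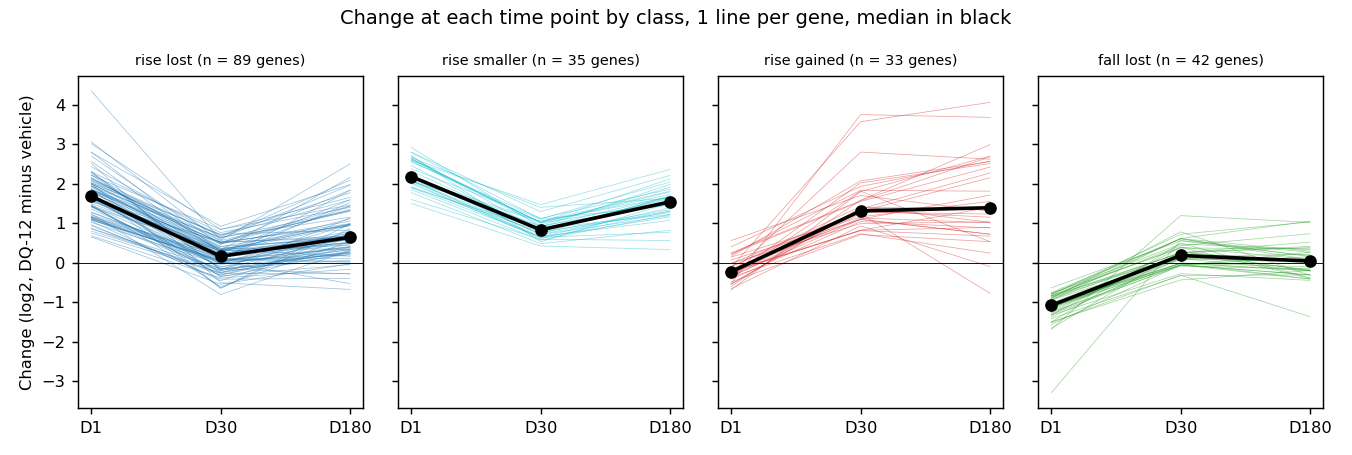
Change from vehicle to DQ-12 rats (y axis, log2) at D1, D30, and D180 for the genes of the 4 largest classes, with 1 thin line per gene and the class median in black (6 rats per group and time point). The classes were set by the D1 and D30 contrasts, and the D180 arrays shared the normalization, the probe filter, the choice of the brightest probe, and the pooled spread. The medians at D180 are 0.64 for lost rises, 1.54 for smaller rises, 1.39 for gained rises, and 0.04 for lost falls.

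Receptors and enzymes of macrophages were prominent among the changes that were gained or grew by D30. Trem2, a lipid-sensing receptor of macrophages, was 9.47 to 10.49 in vehicle D1 rats (median 10.00) and 10.21 to 11.05 in DQ-12 D1 rats (median 10.78). On D30 the range was 8.78 to 9.49 (median 9.06) for vehicle and 11.39 to 12.96 (median 12.38) for DQ-12 rats. The groups overlapped at D1 and lay far apart at D30. The rise grew from 1.63-fold to 9-fold, a difference of 2.46 ± 0.30 (adjusted p = 1.2e-05), to which the fall of the vehicle rats contributed 0.87. Marco, a scavenger receptor that binds silica, was read by a dim probe, and 4 of 6 DQ-12 arrays and no vehicle array were well above background at D30, where it was at least 3.14-fold higher. Of its fitted difference of 3.07, a fall of 1.21 came from the vehicle rats, with 2 of their D1 arrays well above background. Cd68, a glycoprotein of macrophage lysosomes, had a mean of 12.43 ± 0.30 (SD, n = 6) and 12.57 ± 0.24 at D1, and 11.80 ± 0.17 and 12.96 ± 0.19 at D30, in vehicle and DQ-12 rats. Its change was 0.14 at D1 and 1.16 at D30 (difference 1.02, adjusted p = 0.0059), with a fall of 0.63 in vehicle rats and a rise of 0.39 in DQ-12 rats. Atp6v0d2, a subunit of the proton pump of macrophages and osteoclasts, rose 2.92-fold at D30 and was 1.16-fold at D1 (1.33 ± 0.30, adjusted p = 0.015).

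In the list of 28 genes of scavenger receptors and macrophage lipid handling, 5 were called, all more positive (17.9%, beside 0.384% of all genes), and the median difference was 0.50. The list held 3 higher DEGs at D1, 12 at D30, and 12 at D180. Against the vehicle D1 array of the shared scan date 3 of the 28 genes were called, and with scan date or slide as a block 1 was, Trem2. Msr1, Gpnmb, and Mmp12, which belong to macrophages as well, had differences of 0.47, 0.21, and 0.26 that did not pass, with changes of 0.90, 1.29, and 3.36 at D1. Spp1, osteopontin, had a change of 6.99 at D1 and 5.14 at D30, and its difference of -1.86 did not pass (adjusted p = 0.222). None of the 34 lysosome and phagosome genes was called at the threshold used (limma), which is near the 0.944% called over all genes. Their median difference was 0.04.

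Neutrophil genes were divided. Cd177, a surface glycoprotein of neutrophils, was 10.55 to 10.96 (median 10.71) in vehicle D1 rats and 11.66 to 12.22 (median 11.93) in DQ-12 D1 rats. The D30 range was 8.56 to 9.67 (median 9.44) for vehicle and 12.05 to 13.12 (median 12.41) for DQ-12 rats. The treatments did not overlap at either time point, and the change grew by 1.96 ± 0.30 (adjusted p = 0.00027). Most of that growth came from the vehicle rats, whose level fell by 1.46 from D1 to D30, while that of DQ-12 rats rose by 0.50. RGD1565655, now named Cd177l2, had similar values by 1 of its 3 probes (2.13 ± 0.28, vehicle rats -1.47), and cross-hybridization with Cd177 cannot be told apart from its own signal. S100a9, a subunit of calprotectin, was 12.35 to 13.54 and 12.71 to 13.93 at D1, and 12.04 to 13.41 and 13.84 to 15.53 at D30, in vehicle and DQ-12 rats, with a difference of 1.54 ± 0.36 (adjusted p = 0.016). It was the only one of 24 neutrophil markers that was called (4.17%, beside 0.384% of all genes). Its partner S100a8 had 0.72 (adjusted p = 0.299), Lcn2 -2.87 (adjusted p = 0.45), and the receptor Csf3r -0.70 (adjusted p = 0.302). RatNP-3b, a neutrophil defensin, was called as well (1.93 ± 0.53, adjusted p = 0.044), with a fall of 1.52 in the vehicle rats.

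Single genes of chemokines and plasma proteins were also called, in lists most of whose members were not. Over all genes, 0.384% were called with a more positive change. Ccl1, the ligand of the receptor CCR8, stayed below the well-above-background limit on every vehicle array, and was at least 1.99-fold higher at D1 and at least 13.8-fold higher at D30 (adjusted p of the difference = 0.0064). Cxcl3, a neutrophil chemokine, rose 2.43-fold at D30 and was 1.24-fold lower at D1 (1.60 ± 0.43, adjusted p = 0.04). Of 9 neutrophil chemokines and receptors, Cxcl1 and Cxcl3 were called, and Cxcl2 was higher at both time points (1.34 and 1.76). Of 15 monocyte chemokines and receptors, 1 was called, and Ccl2 (2.56 and 2.80) and Ccl7 (2.78 and 3.34) changed alike at D1 and D30. Itih1 and Itih3, heavy chains that bind hyaluronan, were the called members of 25 acute phase genes, whose median difference was 0.05. Itih1 was at least 6.89-fold higher at D30, where no vehicle array and all 6 DQ-12 arrays were well above background, and at D1 the only array well above background was that of vehicle rat 5, at 7.80. Itih3 rose 2.46-fold at D30 and was 1.01-fold at D1 (1.32 ± 0.31, adjusted p = 0.016). C6, a component of the terminal complement complex, was the 1 called gene of 36 complement and coagulation genes (median 0.05), at 1.52 ± 0.41 (adjusted p = 0.038). From D1 to D30 it fell by 0.90 in vehicle rats and rose by 0.62 in DQ-12 rats. Its difference was 0.76 against the vehicle D1 array of the shared scan date and 0.60 with scan date as a block, and neither passed. Arg1, arginase, was the 1 called of 20 eosinophil and type 2 genes (median -0.15), at 1.14 ± 0.29 (adjusted p = 0.03).

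Jchain, which links the units of secreted IgA and IgM, was the called gene of 20 B cell markers (5%, beside 0.384% of all genes). Its signal was 10.79 to 11.87 (median 11.40) in vehicle D1 rats and 10.14 to 11.67 (median 10.73) in DQ-12 D1 rats. At D30 the range was 11.71 to 12.70 (median 12.49) and 13.41 to 14.12 (median 13.74). The groups overlapped at D1, and all DQ-12 rats were higher at D30 (difference 1.90 ± 0.43, adjusted p = 0.012). The surface markers of mature B cells Cd79b and Ms4a1 had differences of -0.11 and 0.22 that did not pass. Klk13, RGD1565617, and RGD1563231 were further large differences (3.26, 2.49, and 2.18), and RGD1305807, now named Stra6l, had 1.91 ± 0.51 (adjusted p = 0.039).

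**Figure D4:**
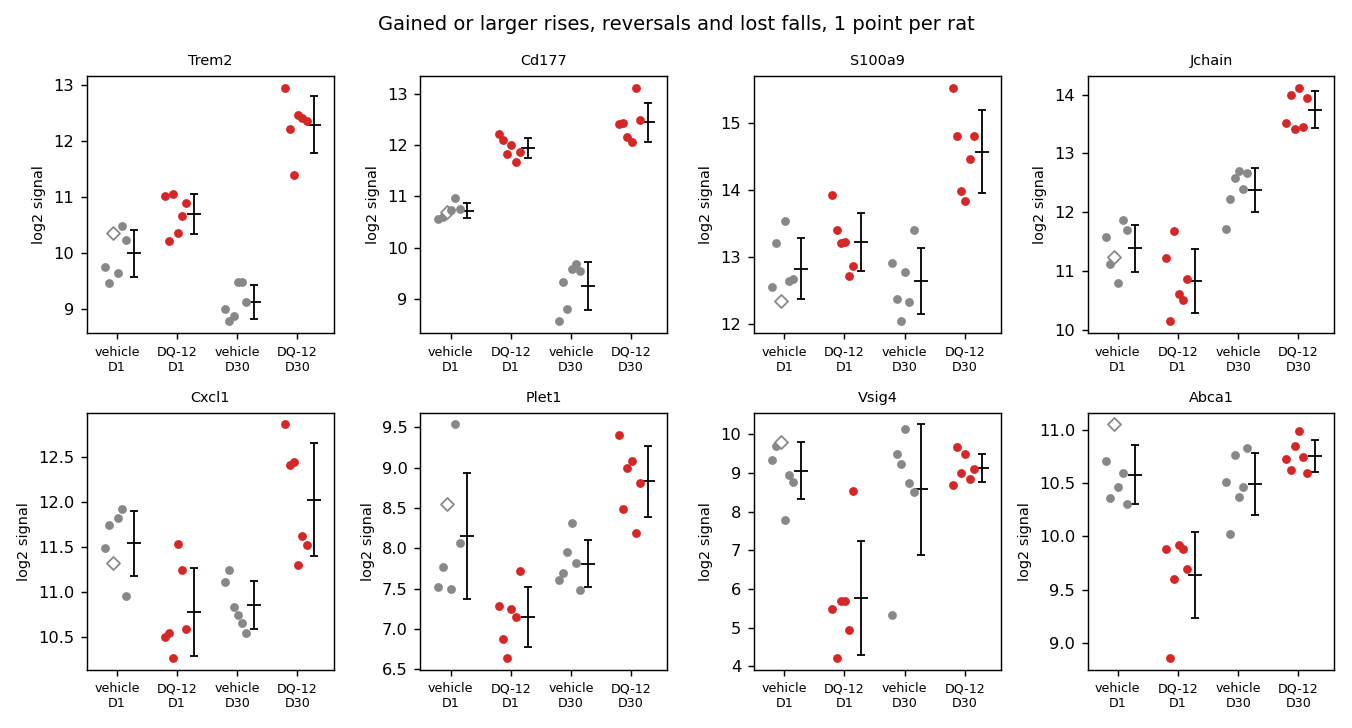
Log2 signal per rat (y axis) of Trem2, Cd177, S100a9, Jchain, Cxcl1, Plet1, Vsig4, and Abca1 in the 4 groups, with bars for the mean ± SD of 6 rats. Gray circles are vehicle rats, red circles DQ-12 rats, and the open diamond is vehicle D1 rat 3. For Trem2, Cd177, S100a9, Jchain, and Cxcl1 the DQ-12 rats at D30 do not overlap with the vehicle rats, and for Cd177 the vehicle rats lie lower at D30 than at D1.

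The change reversed its sign for 8 genes. Klk13, Plet1, Cxcl1, Tnfaip2, Kifc2, Ccl6, and Gpt were lower in DQ-12 rats at D1 and higher at D30, and Guca2a, the intestinal peptide guanylin, was higher at D1 and lower at D30. Cxcl1, a main neutrophil chemokine of the rat, was 10.96 to 11.92 (median 11.61) in vehicle D1 rats and 10.27 to 11.53 (median 10.57) in DQ-12 D1 rats. The D30 values were 10.55 to 11.24 (median 10.79) and 11.30 to 12.86 (median 12.02). The groups overlapped at D1, whereas at D30 each DQ-12 rat lay above each vehicle rat. The change was -0.76 ± 0.27 at D1 (adjusted p = 0.046) and 1.17 ± 0.27 at D30 (adjusted p = 0.0076), and the difference was 1.93 ± 0.38 (adjusted p = 0.0039). Its promoter carries the letters GGGANTTTC of an NF-kappaB site. On either strand, these letters were present in 3 of 26 promoters of gained or larger rises (11.5%) and in 4 of 92 of lost or smaller rises (4.35%). They were present in 1.13% of all promoters. Cxcl1, as a reversed gene, was in neither of these classes. The 250 bases before the start of Cxcl1 (chr14:17479322-17479571, minus strand, GRCr8, RefSeq) are shown, with this site in capitals.
Cxcl1: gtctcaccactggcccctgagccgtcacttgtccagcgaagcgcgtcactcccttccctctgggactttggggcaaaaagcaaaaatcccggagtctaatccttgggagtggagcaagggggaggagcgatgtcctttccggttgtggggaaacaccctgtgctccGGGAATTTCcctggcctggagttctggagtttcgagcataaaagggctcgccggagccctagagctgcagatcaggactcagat
Plet1, a surface protein of alveolar macrophages and epithelial progenitors, was 7.50 to 9.54 (median 7.92) and 6.64 to 7.72 (median 7.20) at D1, and 7.49 to 8.31 (median 7.76) and 8.19 to 9.41 (median 8.91) at D30, in vehicle and DQ-12 rats. The groups overlapped at both time points, and the difference was 2.02 ± 0.42 (adjusted p = 0.0064). Klk13, a secreted serine protease, had the largest reversal, -1.09 ± 0.37 at D1 (adjusted p = 0.04) and 2.17 ± 0.37 at D30 (adjusted p = 0.00029). Tnfaip2, a gene induced by tumor necrosis factor, went from -0.58 to 0.68, and Kifc2, a kinesin, from -0.71 to 0.47. Ccl6, a chemokine of macrophages, went from -0.49 to 0.54, with values close to the adjusted p threshold at both time points (0.029 and 0.045). For Plet1, Kifc2, Gpt, and Guca2a the adjusted p at D30 was also close to this threshold (0.044, 0.04, 0.045, and 0.033, limma). The D1 changes rested mostly on vehicle arrays scanned apart. With scan date as a block, the differences of Kifc2 and Gpt were still called, and those of the other reversed genes were not. Gpt, an alanine aminotransferase, had a mean of 12.89 ± 0.17 and 12.22 ± 0.19 at D1, and 12.57 ± 0.13 and 12.91 ± 0.13 at D30 (SD, n = 6), in vehicle and DQ-12 rats, with no overlap at either time point. At D180, Klk13, Plet1, and Tnfaip2 were higher DEGs (1.94, 1.12, and 1.17).

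Falls that were present at D1 and not at D30 included genes of resident macrophages and of lipid regulation. Vsig4, a complement receptor of resident macrophages, was 7.79 to 9.81 (median 9.14) in vehicle D1 rats and 4.21 to 8.54 (median 5.58) in DQ-12 D1 rats. At D30 the signal was 5.33 to 10.14 (median 8.99) and 8.69 to 9.66 (median 9.04). A single DQ-12 rat at D1 and a single vehicle rat at D30 stood apart from their groups, and the fall was 9.85-fold at D1, with a difference of 3.86 ± 0.91 (adjusted p = 0.017). Abca1, which exports cholesterol from macrophages, was 10.30 to 11.05 and 8.86 to 9.92 at D1, and 10.02 to 10.83 and 10.59 to 10.99 at D30 (difference 1.20 ± 0.22, adjusted p = 0.0023). Srebf1, the regulator of fatty acid synthesis, went from -0.84 to 0.16, Scd2, a fatty acid desaturase, from -0.83 to 0.39, and Mylip, which marks the LDL receptor for degradation, from -0.95 to 0.10. Abca1, Srebf1, and Mylip are known targets of the liver X receptors, but they were picked from the called genes and grouped after their values had been seen. Abcg1, Apoe, Apoc1, and Lpl, from the list of macrophage lipid handling, were not among the called genes. Whether the liver X receptors took part was not tested. In a list of 18 genes of sterol and fatty acid regulation, chosen after the values had been seen, 4 were called, all more positive (22.2%, beside 0.384% of all genes, median 0.33). The difference was negative for 6 of the 18 genes. In the list of 20 genes of sterol synthesis none was called, and the median was -0.38. Of the 18 genes, 1 was called with scan date as a random block, 1 against the array of the shared scan date, and 0 with scan date or slide as a block. Of 21 genes of alveolar macrophages, chosen likewise, 9 were called, all more positive (42.9%, beside 0.384% of all genes, median 0.77). Among these, Vsig4, Abca1, and Cd200r1l had a lost fall, and Plet1 and Ccl6 reversed. Marco and Cd68 had a gained rise, and Trem2 and Siglec1 a larger rise. With the single vehicle D1 array of the shared scan date 3 of the 21 genes were called, with scan date as a random block 5, with scan date as a block 1, and with slide as a block 2. Car4 and Mrc1, markers of the same cells, had 0.01 and 0.50 and did not pass.

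A fall gained by D30 was fitted for 5 genes, Ppp5c, Ankrd1, Olr490, Gjd3, and LOC102548594, and for 4 of them the vehicle rats shifted more than the DQ-12 rats. Olr490 was well above background on 0 of the 24 arrays, and Gjd3 and LOC102548594 on 2 arrays each, all of vehicle rats, so that these 3 were not well above background in any DQ-12 rat of either time point. Ankrd1, a stress-induced protein of muscle, had 10.06 ± 0.30 and 10.50 ± 0.59 at D1, and 11.03 ± 0.21 and 10.27 ± 0.40 at D30 (mean ± SD, n = 6), in vehicle and DQ-12 rats. The 8 genes that were called for the difference but passed at neither time point were LOC102546644, Defb13, Fam83e, Pla2g1b, Krt8, Kctd14, Hsd17b2, and Olr1724. Krt8, a keratin of simple epithelium, went from 0.42 to -0.63.

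Many lists held no called gene, which for lists of this size is near the 0.944% called over all genes. Among the lists of T cells (23 genes tested), NK cells (17), MHC and antigen presentation (21), interferon-stimulated genes (31), immediate early genes (26), the circadian clock (20), NRF2 targets (24), and alveolar type 2 (17), type 1 (12), airway (24), and endothelial (22) markers, 0 genes passed in limma. The median differences of these lists lay between -0.07 for endothelial and 0.17 for alveolar type 2 markers. None of the 20 smooth muscle and fibroblast markers passed either, with a lower median difference of -0.33. Over all 23940 genes, 3827 had an unadjusted p under 0.05 for the difference and 521 an adjusted p under 0.05.

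The calls were recomputed against the 1 vehicle D1 array that was scanned on the date of the DQ-12 D1 arrays and lay on the slide of 4 of those 6. This fit shares that rat and all arrays of the other groups with the one that chose the genes, so that agreement in sign is in part fixed by the choice. The sign was the same for all 226 differences, 164 were still at least 2-fold, and the median size went from 1.39 to 1.23. With 1 rat in that group only 31 genes were called in all, 13 of them among the 226. With scan date as a block, 30 genes were called (12 shared), and with slide as a block, 30 (9 shared). Top2a, Tk1, Trem2, Ceacam4, and Gpt passed in all 3 fits. With 1 rat in a group, its spread is assumed to be that of the other groups. Top2a had -2.05 (adjusted p = 0.0022) against that rat, and Trem2 had 2.83 (adjusted p = 0.0026). For Cxcl1 (1.71, adjusted p = 0.54), Vsig4 (4.61, adjusted p = 0.41), Il24 (-3.58, adjusted p = 0.37), and Foxn4 (-2.47, adjusted p = 0.23) the size was close to that from all rats and the call was lost. Among the 49 named genes, the size was less than 1 for Tnc (-0.69), LOC102551779 (-0.69), Nfkbiz (0.55), and C6 (0.76).

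The level of that rat was also set beside the other vehicle rats. The genes were called with all of these rats, which fixes much of where they lie, and the counts are a description. In 86 of the 89 lost rises it lay below all 6 DQ-12 rats, as did each of the other vehicle rats in 86 to 89 genes, and in all 35 smaller rises each vehicle rat did. In the 42 lost falls it lay above all DQ-12 rats for 35 genes, and the others for 39 or 40. Its median deviation from the other 5 vehicle rats was 0.20 in the lost rises, 0.30 in the smaller rises, and -0.19 in the lost falls, toward the DQ-12 rats each time. Vehicle rat 6, scanned on another date, deviated by 0.32, 0.50, and -0.05. Against vehicle rat 3 alone, the median difference was -1.27 in the lost rises in place of -1.47. In the lost falls it was 1.01 in place of 1.22, close to the 2-fold limit. The D1 change of the lost falls kept its sign against this rat for 39 of the 42 genes. The cell cycle list had a median difference of -1.04 against this rat, with 3 genes called, and 2 genes were called with either block. Within the scan dates of D30, the mean cell cycle difference between DQ-12 and vehicle rats was 0.66 on the date with 1 DQ-12 and 4 vehicle arrays and 0.35 on the date with 5 and 2, against 1.60 within the shared date of D1. On the same dates, Trem2 differed by 3.31 and 3.09 at D30 and by 0.34 at D1, Cxcl1 by 0.73 and 1.31 at D30 and by -0.54 at D1, and Vsig4 by 0.84 and -0.50 at D30 and by -4.05 at D1.

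**Figure D5:**
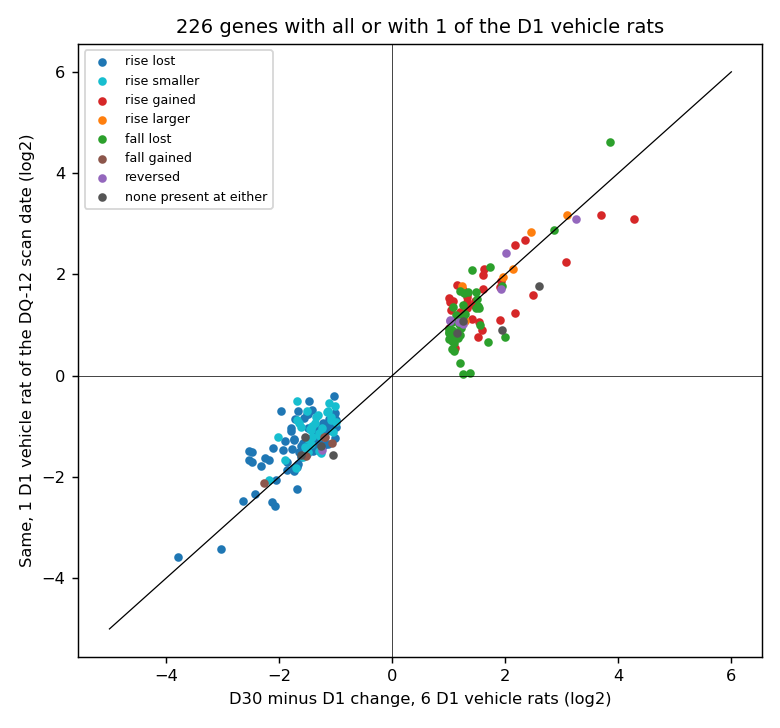
Difference between time points (log2) of the 226 called genes with all 6 vehicle D1 rats (x axis) and with only vehicle D1 rat 3 (y axis), with 1 point per gene colored by class and the line of equal values. Both axes share all arrays except those of 5 vehicle D1 rats. All 226 points lie in the lower left or upper right quadrant, and the median size is 1.39 on the x axis and 1.23 on the y axis.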

How the data were processed

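Per the labels and the study's methods, RNA of the accessory lobe of each rat was labeled with Cy3 and hybridized to its own single-color Agilent array, and the authors extracted spot intensities with Feature Extraction 12.0.1.1. The analysis used the deposited background-corrected intensity. The deposited log2 values, a 75th percentile scaling centered on each probe (r = 0.99997 over 1641055 values), served as an alternative. Outlier spots (232 to 596 per array) were left out, spots of a probe were averaged on the log2 scale, and probes above the 95th percentile of 308 negative controls on at least 6 arrays were kept. After quantile normalization, each gene was represented by its brightest probe (23940 genes).

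The 36 arrays were modeled with 6 group means in limma 3.58.1 (R 4.3.3), with 2-sided tests, Benjamini–Hochberg adjustment over all genes, a fold limit of 2, an adjusted p under 0.05, and no batch term. The study's methods state that a batch correction was made but name no variable, and most D1 vehicle arrays were scanned apart. The main fit thus departs from the study's processing in this step. No 2 arrays correlated above 0.9888. The number of arrays limits the precision. The model was also run on simulated data with independent spread and no effect of scan date or slide. That run cannot test the fit under the scan dates of D1. A fold given as "at least" divides the brighter group mean by the higher of the background limit of each array and the gene's own signal.

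The members and gene lists were chosen with earlier results of these data known, and 5 further lists after the values had been seen. Named genes were, among called genes, the 12 largest differences in each direction with at least 3 of 6 arrays of each group well above background, the 4 largest in each direction among dimmer genes, up to 6 reversed genes, and up to 4 called members per list. Other genes given with values were chosen after their values were seen. Symbols were those of the array files, and 212 of the 226 called genes matched RefSeq (GRCr8) by symbol, synonym, or accession. Alternatives covered the background correction, scaling, filter, choice of probe, model, batch, replicate block, threshold, and each rat left out. Promoter sequences were those of RefSeq (GRCr8), and exon annotation was not used here.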

Additional observations from a re-analysis of the deposited data

Results flagged for a closer look

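In 21 of 196 groups of 6 rats tested for the named genes, the most extreme rat stood apart from the others by Dixon's criterion at the 95% level, where chance gives about 1 in 20. The high rats were, in log2 signal, DQ-12 D1 rat 6 for Vsig4 (8.54), vehicle D1 rat 5 for LOC102546644 (8.53) and Itih1 (7.80), DQ-12 D30 rat 4 for Celf4 (4.96) and Tnc (8.25), vehicle D30 rat 4 for Shisa8 (7.06), vehicle D30 rat 3 for Marco (3.29) and Hmmr (3.53), and DQ-12 D1 rat 2 for Timp1 (14.98). The low rats were vehicle D30 rat 1 for Vsig4 (5.33) and RGD1565655 (8.71), vehicle D1 rat 3 and DQ-12 D30 rat 3 for RGD1565617 (6.77 and 8.63), DQ-12 D30 rat 4 for Shisa8 (5.08), vehicle D1 rat 4 and DQ-12 D1 rat 2 for Parpbp (2.70 and 4.93), DQ-12 D30 rat 2 for Guca2a (6.38), DQ-12 D1 rat 2 for Nfkbiz (6.59) and Abca1 (8.86), DQ-12 D1 rat 5 for Itih3 (3.67), and DQ-12 D30 rat 5 for C6 (9.06). DQ-12 D1 rat 2 thus stood apart for 4 genes.

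The change differed between D30 and D1 for 226 genes (limma), and its sign was opposite at the 2 time points for Klk13 (difference 3.26), Plet1 (2.02), Cxcl1 (1.93), Tnfaip2 (1.26), Guca2a (-1.24), Kifc2 (1.18), Ccl6 (1.03), and Gpt (1.02), with an adjusted p under 0.05 at both. Of 8483 probes without a gene name, tested apart from the genes, 52 (0.613%) were called, 23 more positive and 29 more negative at D30.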

How the results depend on the processing

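The number of called genes depended most on the batch, the background correction, the weights, and the threshold. Against 226 genes (92 more positive and 134 more negative at D30), normexp background correction gave 101 (45 and 56), the uncorrected median signal 138 (57 and 81), scan date as a block 30 (23 and 7), slide as a block 30 (26 and 4), scan date as a random block 88 (29 and 59), slide as a random block 164 (58 more positive), the single D1 vehicle array of the shared scan date 31 (24 and 7), array weights 494 (217 and 277), and a fold of 1.5 438 (189 and 249). Limma's test against a fold of 2 (treat) left 1 gene, Top2a, with 0 more positive and 1 more negative, and 38 and 54 at an unadjusted p under 0.05. With 75th percentile scaling 225 genes were called, 60.4% of them more positive in place of 40.7%, and 89 more negative, and with the deposited log2 values 224 (60.7% more positive, 88 more negative), where the median of all genes was 0.083 and 0.082 in place of 0.007. With each rat left out in turn, the count ran from 180 (without vehicle D1 rat 5) to 319 (without DQ-12 D30 rat 5), the more positive genes from 61 (without DQ-12 D1 rat 2) to 132, and the more negative genes from 109 to 187. The called cell cycle genes ran from 21 to 30.

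The sign of the 226 differences was kept in all of these fits, except for 1 gene each with normexp, the median signal, and slide as a block. With the median of all probes of a gene, 222 signs were kept, and RGD1565655 (-0.31) and E2f8 (0.15) changed sign. With the replicate number as a block 244 genes were called (102 and 142), 219 of them shared. Rats with the same number did not deviate together (r from -0.131 to 0.218 over 12 pairs), so the numbers do not pair the rats. LOC102546644 and RatNP-3b lost their call without any of 15 of the 24 rats, C6 14, RGD1305807 and Nfkbiz 13, Cxcl3 12, Arg1 9, Ccl6 7, Fancd2 3, and Timp1 1. Of the 49 named genes, 5 were called with scan date as a block, 5 with slide as a block, and 4 against the single array. The cause of these changes was not tested. Where no array of a group was well above background, the level there is only a bound.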
